A study of Mus musculus with 6 samples.

Results

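The Snail, Zeb and Twist genes examined here are Snai1, Snai2, Zeb1, Zeb2, Twist1 and Twist2, 6 transcription factor genes found by symbol among the 21785 gene rows of the deposited table. Each had 1 row, and all 6 passed the filter on low values (an average of 1 or more across libraries). RNA was sequenced from cultured smooth muscle cells of the pulmonary artery (PASMCs), which form the contractile layer of the vessel, grown out of C57BL/6 mouse lungs whose arteries had been filled with iron particles and collected with a magnet. All cells spent 48 h in medium without supplements. In the stimulated group (3 samples) the cells then received bone morphogenetic protein 9 (BMP9, 1 ng/mL) together with BMP10 (5 ng/mL) for 6 h, and in the control group (3 samples) they received neither. Whether the 3 samples of a group are separate animals or cultures is not stated, and the p-values cover no more than the spread among the libraries, which may be technical.

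These factors are best known as drivers of epithelial-mesenchymal transition, in which cells lose their junctions and become motile. Snail proteins (Snai1 and its paralogue Snai2, also called Slug) are zinc-finger repressors that bind the E2-box CAGGTG and, through an N-terminal SNAG motif, recruit histone deacetylases. Zeb1 and Zeb2 carry zinc-finger clusters at each end that bind the same element and recruit CtBP corepressors, and Zeb2 was first described as a partner of SMADs. Twist1 and Twist2 are basic helix-loop-helix proteins that pair with E proteins, and Id proteins counteract such pairing by taking up the E proteins. TGF-beta and BMP ligands, acting through SMADs, are among the known inducers of several of these genes.

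In mm10 (GENCODE M21), Snai1 (ENSMUSG00000042821) spans chromosome 2 from 167538195 to 167542814 on the plus strand, and Zeb2 (ENSMUSG00000026872) lies on the same chromosome from 44983632 to 45117395 on the minus strand. Snai2 (ENSMUSG00000022676) is on chromosome 16 from 14705852 to 14709385, Twist1 (ENSMUSG00000035799) on chromosome 12 from 33957671 to 33959829 and Twist2 (ENSMUSG00000007805) on chromosome 1 from 91801461 to 91848028, all on the plus strand. Snai1, Snai2 and Twist1 are compact genes with 1621, 2021 and 1628 exonic bases, against 19942 in Zeb2 and 3174 in Twist2.

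The 250 bases before the annotated start are shown for Snai1, the member that rose, and for Twist1 and Twist2, which varied together across the libraries. They come from RefSeq on GRCm38.p6, run 5′ to 3′ on the gene's strand, and cover chr2:167537945-167538194, chr12:33957421-33957670 and chr1:91801211-91801460. Capitals mark matches, on either strand, to the E2-box CAGGTG, to the SMAD half-element CAGAC or to the GC-rich SMAD element GGCGCC.
Snai1: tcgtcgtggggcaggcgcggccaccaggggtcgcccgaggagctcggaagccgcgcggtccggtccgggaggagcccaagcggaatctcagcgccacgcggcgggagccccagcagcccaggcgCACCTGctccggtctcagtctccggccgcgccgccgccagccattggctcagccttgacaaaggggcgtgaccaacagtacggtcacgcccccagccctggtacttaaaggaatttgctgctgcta
Twist1: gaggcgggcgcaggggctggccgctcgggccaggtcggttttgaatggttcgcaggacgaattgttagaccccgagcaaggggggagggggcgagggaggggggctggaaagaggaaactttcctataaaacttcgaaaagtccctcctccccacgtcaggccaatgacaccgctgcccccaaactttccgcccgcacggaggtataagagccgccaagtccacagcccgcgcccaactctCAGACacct
Twist2: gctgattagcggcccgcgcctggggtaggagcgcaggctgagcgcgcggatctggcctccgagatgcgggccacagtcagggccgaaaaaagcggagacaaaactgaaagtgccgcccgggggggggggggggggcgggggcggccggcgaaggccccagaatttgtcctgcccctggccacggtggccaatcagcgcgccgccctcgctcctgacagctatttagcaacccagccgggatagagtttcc
The Snai1 window held 1 E2-box, read as CACCTG on this strand and starting 126 bases before the start site. An E2-box was present in 17.2% of all 32851 promoter windows of this length. It is one form of the general E-box CANNTG, which 66.2% of windows held, and the Snai1 window held no further E-box. Neither Twist window held an E-box. Twist1 had 1 CAGAC, 9 bases before its start (42.2% of windows held one), and none of the 3 windows held GGCGCC (9.59% of all). RefSeq entries matched 4 members. The windows of Zeb2, at 4 annotated starts, held none of these motifs, and Snai2 and Zeb1 had no entry.

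The deposited values are normalized read counts, and all levels below are in that unit. From the factors applied, depth was estimated at 26.4 to 27.6 M reads in controls and at 23.3, 28.0 and 54.4 M in stimulated replicates 1, 2 and 3, so low values carry the least counting error in stimulated replicate 3. Changes are stimulated minus control on the log2(value + 1) scale ± SE, which understates changes of low genes, and adjusted p-values are limma's, corrected by the Benjamini-Hochberg method across the 21743 genes tested. Of these, 13.4% were called at 0.05, 8.61% higher and 4.75% lower, and the groups did not overlap for 33.2%. The split of 1873 higher and 1032 lower calls became 1135 and 2265 with equal library totals and 1420 and 1352 with upper-quartile factors. Replicate 2 stood apart in both groups. Summed endothelial markers were at 44156 in control replicate 2 against 12076 and 14089 in the other controls, and at 43570 in stimulated replicate 2 against 10171 and 16507. Markers of other lung cells were present throughout: none of the 64 markers listed for 7 cell types was at 0 in any library, and the lowest value was 7. The 8 smooth muscle markers were all detected and summed to 42125 to 64049 in controls and to 92489 to 194462 after stimulation. Acta2 led this sum, at 23470 to 37627 in controls and 69094 to 153164 after stimulation. Of the 8 markers, 4 were called higher and none lower, and 1 estimate was below 0. Macrophage markers, led by Lyz2, summed to 101001 to 174887 in controls and to 149449 to 226188 after stimulation. In such mixed cultures, fewer cells of a type and less RNA per cell cannot be told apart.

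**Figure D1:**
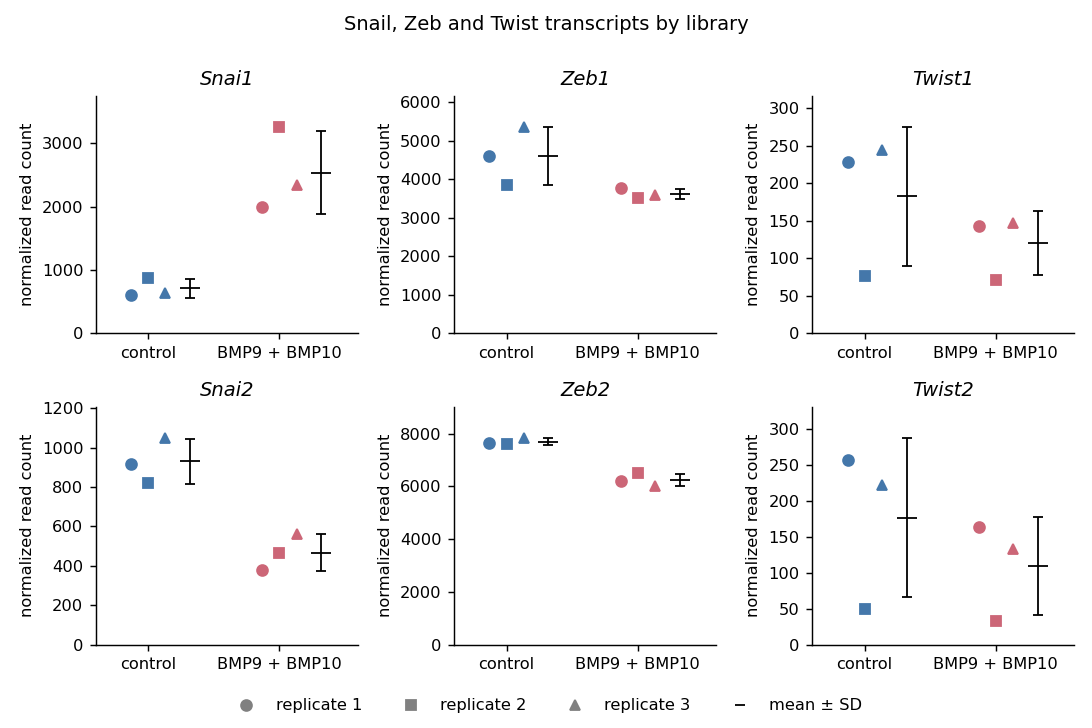
Normalized read counts (vertical axes, from 0) of the 6 genes in the control and stimulated libraries, with symbols for replicates 1 to 3 and bars for mean ± SD (n = 3 per group). Snai1 lay between 2002 and 3266 after stimulation against 611 to 881 in controls, Snai2 and Zeb2 lay lower after stimulation without overlap, and both Twist genes were lowest in replicate 2 of each group.

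Of the 6 genes, 1 rose (Snai1), 2 fell (Snai2 and Zeb2) and 3 did not pass the test, against the 8.61% and 4.75% of all genes called higher and lower. The groups did not overlap for 4 members, where 33.2% of all genes showed no overlap. Every same-numbered pair showed an increase for Snai1 and a decrease for each of the other 5 genes. When the replicate number was a block, the calls were 1 rise and 4 falls, Zeb1 and Twist2 being added, where 14.9% of all genes were called higher and 12.0% lower. No member was called lower when control replicate 1 or control replicate 3 was left out. Lower calls over all genes went from 1032 to 326 and 312 in those fits.

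Snai1 was the member with the largest change. It stood at 611, 881 and 636 in control replicates 1, 2 and 3 and at 2002, 3266 and 2339 in the stimulated ones. The lowest stimulated library was thus well above the highest control. Replicate 2 was the highest of each group, as for 27.5% of genes averaging 50 or more. The means were 709 ± 149 (SD, n = 3) and 2536 ± 655 (SD, n = 3), a 3.57-fold difference. The change was 1.83 ± 0.21 (95% interval 1.32 to 2.33, limma adjusted p = 0.00346). Within pairs 1, 2 and 3 the fold was 3.28, 3.71 and 3.68, a narrower spread than that of the levels. Of 13185 genes averaging 50 or more, 132 (1.00%) had a larger log2 change.

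Its paralogue Snai2, which is expressed in many mesenchymal cells, went the other way. Controls held 917, 823 and 1050 and stimulated libraries 377, 463 and 561. All stimulated values were below all control values. The mean went from 930 ± 114 (SD, n = 3) to 467 ± 92.1 (SD, n = 3), a change of -1.0 ± 0.17 (95% interval -1.40 to -0.61, limma adjusted p = 0.0116). In 398 of the 13185 genes (3.02%) the log2 change was more negative. The call was lost without control replicate 1 (-1.0, limma adjusted p = 0.0507), control replicate 3 (-0.91, 0.0552) or both replicate 2 libraries (-1.09, 0.0506), while the size hardly moved.

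Because the 2 Snail genes moved in opposite directions, their ratio within a library, which no scaling between libraries can alter, shifted more than either gene. Per kilobase of exon, Snai1 made up 45.4%, 57.2% and 43.0% of the summed Snail level in control replicates 1, 2 and 3, and 86.9%, 89.8% and 83.9% in the stimulated ones. In controls the 2 genes were thus near parity, and after stimulation most Snail transcript was Snai1. The log2 ratio of Snai1 to Snai2 counts was -0.40 ± 0.44 (SD, n = 3) in controls and 2.43 ± 0.38 (SD, n = 3) after stimulation, a difference of 2.83. An exact two-sided permutation test gave p = 0.1, the smallest that 3 against 3 libraries allow (adjusted p = 0.3 over 3 ratios). The pairs gave 2.99, 2.72 and 2.78. The third mouse Snail gene, Snai3, was at 0 to 6 in every library.

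**Figure D2:**
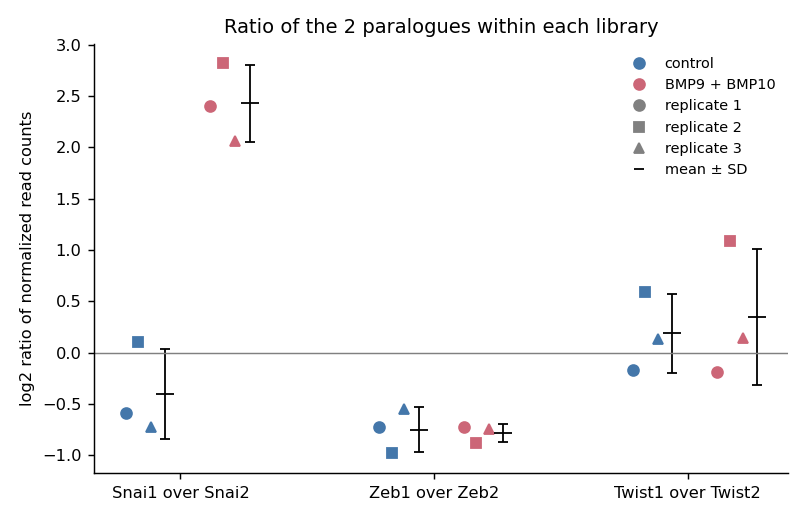
Log2 ratio of the normalized read counts of the 2 paralogues within each library (vertical axis, not corrected for transcript length), for controls and stimulated libraries, with bars for mean ± SD (n = 3 per group). The Snai1 to Snai2 ratio is separated between groups by a mean of 2.83, whereas the Zeb and Twist ratios overlap.

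The Zeb genes were the most abundant members by count and changed little. Zeb2 was at 7642, 7621 and 7842 in controls and at 6204, 6497 and 6017 after stimulation. Replicates lay close together in both groups, and the groups did not overlap. The means were 7702 ± 122 (SD, n = 3) and 6239 ± 242 (SD, n = 3), a fall of the mean to 0.810 of control (-0.30 ± 0.07, 95% interval -0.47 to -0.14, limma adjusted p = 0.0303). It was not called in 5 of the 6 fits that left out a single library, all but the one without stimulated replicate 2, with changes between -0.33 and -0.28 in the 6 fits and limma adjusted p = 0.124 at the highest. A change of this size was common, since 21.5% of the 13185 genes had a more negative one.

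Zeb1 (ENSMUSG00000024238, chromosome 18, 5591860 to 5775467, plus strand, 10266 exonic bases) held 4612, 3856 and 5366 in controls and 3761, 3522 and 3584 after stimulation. The groups did not overlap, but control replicate 2 lay just above the highest stimulated library. The means were 4611 ± 755 (SD, n = 3) and 3622 ± 124 (SD, n = 3). The change of -0.34 ± 0.12 (95% interval -0.63 to -0.04) did not pass over all genes (limma adjusted p = 0.128). It passed with the replicate block (limma adjusted p = 0.0396), when library totals were made equal (-0.51, 0.0319) and when control replicate 2 was left out (-0.46, 0.0342). The log2 ratio of Zeb1 to Zeb2 was -0.75 ± 0.22 (SD, n = 3) in controls and -0.78 ± 0.09 (SD, n = 3) after stimulation (difference -0.03, exact two-sided permutation p = 0.9, adjusted 0.9). It turned to 0.071 without control replicate 3 and to 0.018 without stimulated replicate 2. Small stretches of both genes lie opposite exons of other genes, 198 bases of Zeb1 (Gm10125) and 653 bases of Zeb2 (Zeb2os), or 1.93% and 3.27% of their exonic bases. Gm10125 was at 79, 74 and 108 in controls and at 32, 46 and 53 after stimulation, without overlap, and its change of -0.99 ± 0.27 did not pass (limma adjusted p = 0.0557) except with the replicate block (limma adjusted p = 0.0149). Zeb2os was at 47 to 82 in all libraries.

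Both Twist genes were low and followed the replicate number more than the treatment. Twist1 was at 228, 76 and 244 in controls and at 143, 71 and 147 after stimulation. Twist2 was at 257, 50 and 222 in controls and at 163, 33 and 133 after stimulation. In replicate 2 of each group both genes were far below the other replicates, and the groups overlapped. Of 13185 genes averaging 50 or more, 26.1% were lowest in replicate 2 of both groups. In controls the mean of replicates 1 and 3 was 3.11 times replicate 2 for Twist1 and 4.79 times for Twist2, and among stimulated libraries it was 2.04 and 4.48 times. Among those 13185 better-expressed genes, 149 (1.13%) were as low as 0.5 of the other replicates in replicate 2 of both groups, and both Twist genes were among them, a criterion chosen after their values were seen.

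Endothelial, epithelial and mesothelial marker sums were high in replicate 2, where the Twist genes were low. Relative to the mean of the other replicates, replicate 2 had 3.38-fold (controls) and 3.27-fold (stimulated) the summed endothelial markers, with all 12 highest there in both groups. The corresponding folds were 4.10 and 3.46 for epithelial markers, 3.26 and 3.68 for mesothelial markers, 1.25 and 1.59 for fibroblast markers and 1.26 and 1.72 for smooth muscle markers. Pericyte markers were at 1.05-fold and 1.03-fold, and macrophage markers at 1.20-fold and 0.705-fold. Highest in replicate 2 of both groups were 7 of 10 epithelial, 5 of 6 mesothelial and 7 of 10 fibroblast markers. The same held for 4 of 8 smooth muscle, 4 of 6 pericyte and 1 of 12 macrophage markers. It held for 27.5% of the 13185 genes averaging 50 or more. Sftpc led the epithelial sum in replicate 2, at 19538 of 36162 in the control and 29469 of 37038 in the stimulated library. The part of these markers in the Twist levels was not tested.

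**Figure D3:**
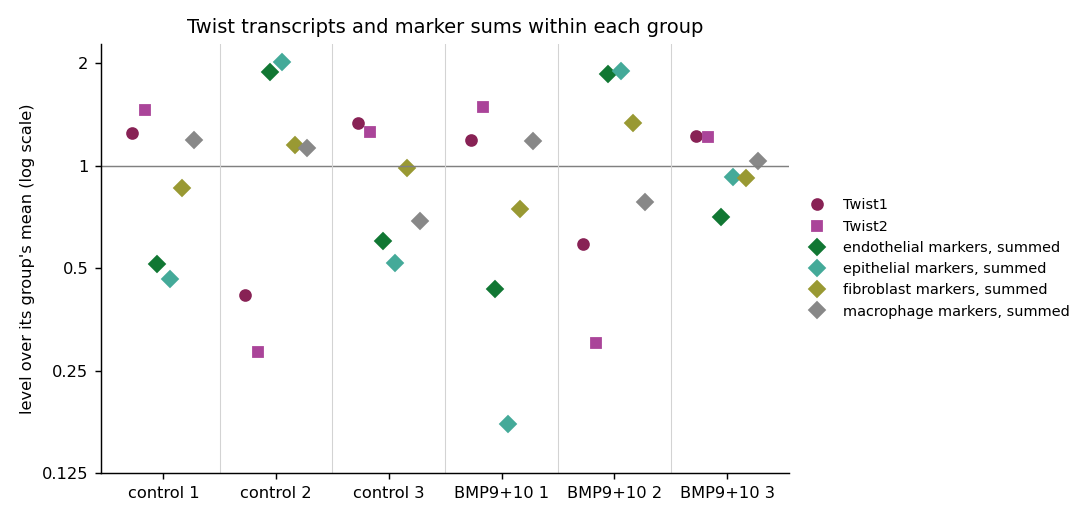
Level of Twist1, Twist2 and 4 summed marker lists in each library, divided by the mean of its group (vertical axis, log scale, 1 marks the group mean). In replicate 2 of both groups the Twist genes are the lowest symbols, while the endothelial and epithelial sums are the highest.

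Between groups, Twist1 had a mean of 183 ± 92.7 (SD, n = 3) in controls and 120 ± 42.8 (SD, n = 3) after stimulation. Its change of -0.50 ± 0.50 did not pass (95% interval -1.68 to 0.68, limma adjusted p = 0.57). Twist2 went from 176 ± 111 (SD, n = 3) to 110 ± 68.1 (SD, n = 3), a change of -0.66 ± 0.79 that did not pass either (95% interval -2.53 to 1.21, limma adjusted p = 0.641). These intervals are wide enough to hold a fall larger than that of Snai2 as well as a rise. Within the same-numbered pairs 1, 2 and 3, however, the log2 difference was -0.65, -0.58 and -0.73 for Twist2 and -0.67, -0.10 and -0.73 for Twist1. With the replicate block Twist2 passed (limma adjusted p = 0.0174) and Twist1 did not (limma adjusted p = 0.0767). Without both replicate 2 libraries and with no block, Twist1 passed (-0.70 ± 0.13, limma adjusted p = 0.0416) and Twist2 did not (-0.69 ± 0.17, limma adjusted p = 0.075). The Twist1 to Twist2 log2 ratio did not separate the groups (0.19 ± 0.39 and 0.35 ± 0.66, SD, n = 3 each; difference 0.16, exact two-sided permutation p = 0.8, adjusted 0.9), and it was -0.21 without stimulated replicate 2.

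The level of Twist2 is uncertain where counting ignored strand, since exons of the antisense gene Gm29100 cover 1477, or 46.5%, of its exonic bases and the strand setting of the counting is not given in the sources used here. Gm29100 itself was at 44, 19 and 33 in controls and at 9, 1 and 9 after stimulation, lowest in replicate 2 as well. Its groups did not overlap, and its change of -2.42 ± 0.70 did not pass (limma adjusted p = 0.0655) except with the replicate block (limma adjusted p = 0.00735). No exon on the opposite strand covers Snai1, Snai2 or Twist1.

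**Figure D4:**
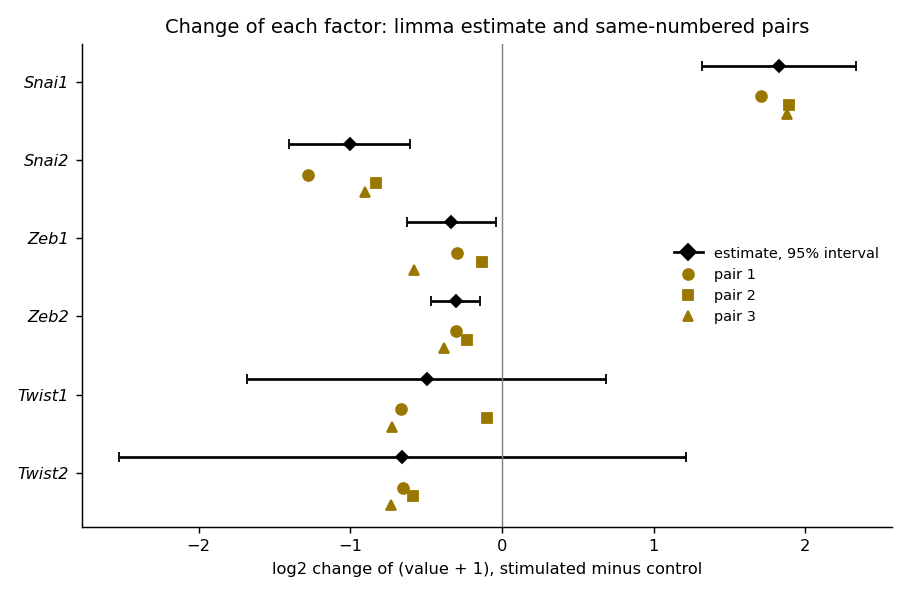
Log2 change of each gene, stimulated minus control (horizontal axis, on log2(value + 1)), as the limma estimate with its 95% interval (black) and as the 3 same-numbered pairs (symbols). The intervals of Twist1 and Twist2 reach from -1.68 to 0.68 and from -2.53 to 1.21, while their pairs all lie below 0.

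Levels of different genes can be compared only per length. Per kilobase of the union of annotated exons, control means were 460 ± 56.4 for Snai2, 449 ± 73.5 for Zeb1, 438 ± 92 for Snai1, 386 ± 6.12 for Zeb2, 112 ± 57 for Twist1 and 55.6 ± 34.9 for Twist2 (SD, n = 3 each). The first 3 differed by less than their spread, and both Twist genes were below the others. The 2 Twist means also differed by less than their spread between libraries. Within each library, however, Twist1 was above Twist2, at 63.1% to 80.8% of their summed level per kilobase. After stimulation the order was Snai1 (1564 ± 404), Zeb1 (353 ± 12.1), Zeb2 (313 ± 12.1), Snai2 (231 ± 45.6), Twist1 (73.9 ± 26.3) and Twist2 (34.6 ± 21.5). By this length Snai2 went from rank 1, close to the next 2, to rank 4, and by the longest coding transcript from rank 3 to rank 4. The place of the Zeb genes rests on the length used. By the longest coding transcript they led in controls, at 844 ± 13.4 for Zeb2 and 795 ± 130 for Zeb1 per kilobase, and Snai1 was still first after stimulation.

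Genes around the factors were read from lists of 7 roles, whose counts stand beside the 8.61% higher and 4.75% lower calls over all genes. Counts with the replicate block stand beside 14.9% higher and 12.0% lower calls over all genes in that fit. Of 8 tested helix-loop-helix partners and their inhibitors, 4 rose, all of them Id genes, and 1 fell. The other 4 estimates, those of the partners, were all below 0. The median log2 change of 0.89 (-0.03 over all genes) thus lies between these 2 sets and describes neither. The rises were Id2 (2.48 ± 0.16), Id1 (2.01 ± 0.21), Id3 (2.33 ± 0.28) and, with the largest error, Id4 (2.30 ± 0.53, limma adjusted p = 0.032). The fall was in Tcf12, an E protein gene, at 6062, 5545 and 6599 in controls and 4144, 4762 and 4414 after stimulation (-0.45 ± 0.09, limma adjusted p = 0.0247), named after its value was seen. The other E protein genes, Tcf4 and Tcf3, had changes of -0.55 ± 0.15 (limma adjusted p = 0.0548) and -0.24 ± 0.08 (0.0994) and passed with the replicate block (0.00611 and 0.0439). Calls of Tcf12 and Id4 were lost in 4 of the 6 fits without a single library, both of them without control replicate 1, without control replicate 3 and without stimulated replicate 3.

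Upstream regulators gave 11 rises and 1 fall among 27 (median 0.35). Smad7 and Smad6, the inhibitory SMAD genes, rose by 3.11 ± 0.17 and 3.8 ± 0.29. The fall was in Smad3, the SMAD that carries TGF-beta signals to Snai1 in other cells, at 4979, 4129 and 5252 in controls and 1300, 1264 and 1217 after stimulation (-1.92 ± 0.11, limma adjusted p = 0.00027). Tgfbr1 (1.73 ± 0.15), Tgfb1 (0.93 ± 0.12), Tgfb3 (1.24 ± 0.19) and Smad2 (0.35 ± 0.08) were among the rises, named after their values were seen. The Smad2 call was lost in 5 of the fits without a single library. Tgfbr2 (-0.09 ± 0.08) and Tgfb2 (0.26 ± 0.21) were not called (limma adjusted p = 0.527 and 0.467). Hmga2, a known cofactor of SMADs at Snai1, had a change of 0.21 ± 0.26 (limma adjusted p = 0.662).

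Corepressors gave 4 rises and 1 fall among 16 (7 rises and 1 fall with the replicate block; median 0.18). The rises were Hdac2 (0.37 ± 0.08), Ajuba (0.98 ± 0.21), a LIM protein that binds the SNAG motif, Rcor1 (0.42 ± 0.10) and Kdm1a (0.29 ± 0.07), the last 2 named after their values were seen. Ehmt2, the histone methyltransferase G9a, fell (-0.33 ± 0.08). Among 18 kinases, ubiquitin ligases and other regulators that act on the proteins, 3 rose and none fell (8 and none with the block, median 0.20). Those that rose were Fbxw11 (0.36 ± 0.08), Lats2 (0.63 ± 0.14) and Fbxo45 (0.40 ± 0.10). The list also holds Ctdsp1, Usp27x, Usp37 and Cops2, which are neither kinases nor ubiquitin ligases. Gsk3b, the kinase that marks Snai1 for breakdown, was at 0.09 ± 0.08 (limma adjusted p = 0.497). All 8 of these called genes lost their call in 4 or 5 of the 6 fits without a single library. Without both replicate 2 libraries 1 corepressor rose and no gene of either list fell. Over all genes, that fit called 1505 higher and 893 lower.

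Epithelial genes that the factors are known to repress gave 1 rise and 1 fall among 25, with a median of -0.72 and 20 of 25 estimates below 0. Over all genes, 11531 of 21743 estimates were below 0. With the replicate block 3 genes of the list rose and 6 fell. Cldn1, a tight junction gene, fell from 305, 282 and 366 to 12, 51 and 39 (-3.40 ± 0.49, limma adjusted p = 0.00708), and Pkp2, a desmosome gene, rose (0.84 ± 0.19, limma adjusted p = 0.0317), a call lost when replicate 1 or 3 of the controls or replicate 2 or 3 of the stimulated libraries was left out. Cdh1, the E-cadherin gene, was at 513, 1947 and 526 in controls and 185, 823 and 906 after stimulation, with no call (-0.64 ± 0.74, limma adjusted p = 0.625). It was highest in replicate 2 among controls, like the sum of the epithelial markers. That sum was 8334, 36162 and 9299 in controls and 3381, 37038 and 18014 after stimulation. The list shares 5 genes with the epithelial and mesothelial marker lists, and the part of epithelial cells in its values was not tested.

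Among 20 mesenchymal genes 7 rose and none fell (block: 9 and 2; median 0.25). The list shares 3 genes with the smooth muscle and fibroblast markers, whose part in it was not tested. Lox, a collagen crosslinking enzyme, and Itga5, a fibronectin receptor subunit, rose by 1.93 ± 0.10 and 2.18 ± 0.12. Of the well-known members of the list, some did not pass: Vim was at -0.18 ± 0.09, Cdh2 at 0.08 ± 0.26 and Fn1 at 0.22 ± 0.20 (limma adjusted p = 0.242, 0.872 and 0.522). Acta2, also a smooth muscle marker, was called higher (1.76 ± 0.30, limma adjusted p = 0.0121), as were Fstl1, Itgb1 and Cdh11. These rises were named after their values were seen. Fstl1 kept its call in each fit without a single library, and Acta2, Itgb1 and Cdh11 did not. Of 24 other transition factors, 4 rose and 2 fell (6 and 4 with the block; median 0.19). Tbx3 (1.06 ± 0.14) and Prrx2 (0.96 ± 0.14) were called in each fit without a single library. Sox4 fell (-0.66 ± 0.13), as did Etv1 (-1.06 ± 0.22), and Foxq1 (1.51 ± 0.30) and Grhl1 (1.09 ± 0.27) rose. The last 3 were named after their values were seen, and each of these 4 calls was lost without control replicate 3, without stimulated replicate 3 and in 2 or 3 further fits without a single library. Levels are uncertain for Foxq1 and Sox4, since antisense exons overlap 66.1% and 54.6% of their exonic sequence.

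**Figure D5:**
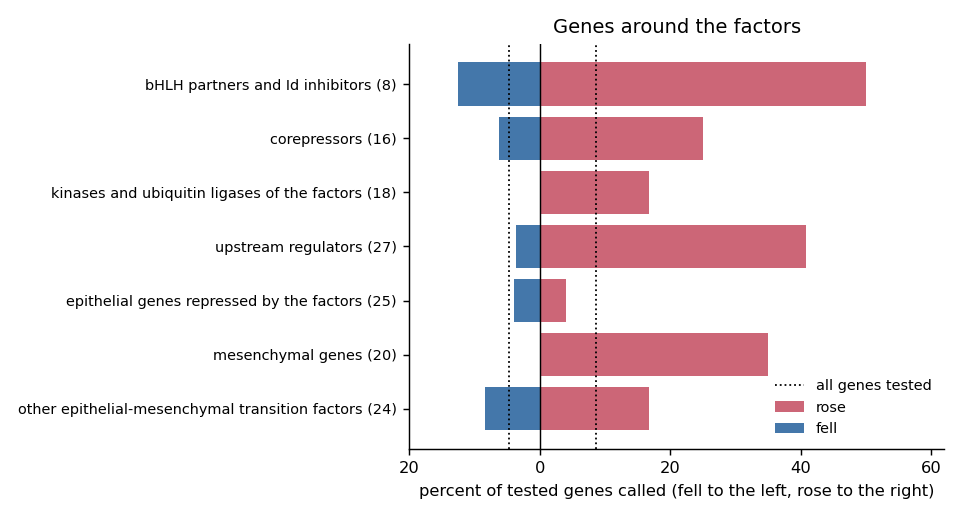
Percent of the tested genes of each list (number in brackets) that were called higher (to the right) or lower (to the left) by limma at an adjusted p under 0.05, with dotted lines at the shares over all genes tested, 8.61% and 4.75%. The helix-loop-helix list and the upstream regulators have the longest bars to the right.

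As a description over the 6 libraries, with treatment and replicate number shared by all points, the genes whose log2 values followed each member most closely among 12317 named protein-coding genes were as follows. Snai1 was followed by Slc25a25 (Pearson r = 0.9996), Tnk2 (0.999) and Srpk1 (0.999), which were also highest in replicate 2 of each group. Bag4, Resf1 and Fgf1 (0.993, 0.991 and 0.991) followed Snai2. For Zeb1 they were Paics, Egfr and Hoxb4 (0.992, 0.992 and 0.990), and for Zeb2 Smarca2, Dnmt3l and Fam171a2 (0.998, 0.998 and 0.998). Wdr35, Ccndbp1 and Abcd3 were closest to Twist1 (0.993, 0.993 and 0.992), and Cacna1a, Pofut1 and Tmem129 to Twist2 (0.996, 0.995 and 0.995). Cacna1a, a calcium channel gene, repeated the dip of Twist2 in replicate 2, at 441, 158 and 423 in controls and 350, 110 and 273 after stimulation. Between the members themselves, Twist1 and Twist2 were the most alike (r = 0.972), and Snai1 ran against Zeb2 and Snai2 (-0.909 and -0.899).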

How the data were processed

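RNA was made into stranded total-RNA libraries, per the labels' protocols. The submitters' processing notes name DESeq2 1.18.1, featureCounts 1.6.3, STAR 2.6.1d and Trimmomatic 0.38 among the authors' tools, with mm10, GRCh38 and hg38 as builds. The deposited values are a score, namely normalized read counts as whole numbers, and the numbers skipped or doubled in each library show that library's factor and depth. Reads were not recovered, so no count model was used.

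Main results came from limma 3.58.1 (R 4.3.3, trended prior) fitted to log2(value + 1) of 21743 genes with a mean of at least 1 (42 left out), with a term for treatment alone and 4 residual degrees of freedom. The fit was tested on simulated data. Of the rows, 21747 matched GENCODE M21. Deviations from group means over 13185 genes correlated by 0.747, 0.741 and 0.218 between same-numbered libraries, so the labels' numbers were taken to pair them, weakly for number 3 (control 3 with stimulated 1: 0.287). Alternatives were other pseudocounts (0.1, 5), filters, scalings (equal totals, upper quartile, RLE and TMM factors), limma-voom, the block and omitted libraries. Members and lists were chosen with earlier results of these data known. Named genes are the members, up to 3 called genes per list with the smallest p and no overlap (or 1 if none passed), and the 3 genes most correlated with each member. Other genes named are called members of a list with few calls, or well-known members of a list, chosen after their values were seen. 1 gene that the rule names is not reported here.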

Additional observations from a re-analysis of the deposited data

How the results depend on the processing

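Snai1 kept its direction and its call in all 19 alternatives (log2 change 1.63 to 1.99, highest limma adjusted p = 0.0273). For the Snai1 to Snai2 log2 ratio 10 alternatives were run, and its difference between groups stayed within 2.63 to 3.08. Scaling to equal totals moved the median change of all genes from -0.03 to -0.20 and upper-quartile factors moved it to -0.11. Relative to that median, Snai2 changed by -0.97 on each of the 3 scales, Zeb1 by -0.30, -0.31 and -0.30, Zeb2 by -0.27, -0.28 and -0.27 and Twist1 by -0.46, -0.47 and -0.46 (as deposited, equal totals, upper quartile), so the larger values with equal totals below hold a shift shared by all genes. Snai2 was at -1.09 without both replicate 2 libraries, where its call was lost, and between -1.15 and -0.86 when single libraries were left out. Zeb2 ranged from -0.33 to -0.28 without single libraries and was not called with the replicate block when both replicate 2 libraries were left out (-0.34), an alternative chosen after seeing the data. Zeb1 was called at -0.51 with equal totals, at -0.34 with the replicate block and at -0.51 with both, and ranged from -0.46 to -0.22 without single libraries. Twist1 was called at -0.67 with the block and equal totals and at -0.70 without both replicate 2 libraries, ranging from -1.04 to -0.16 without single libraries. Twist2 was called at -0.66 with the replicate block and at -0.83 with equal totals added, and ranged from -1.40 to 0.050, the last when stimulated replicate 2 was omitted. The log2 ratio of Twist1 to Twist2 ranged from -0.21 to 0.43 without single libraries, reversing without control replicate 1 (-0.019) and stimulated replicate 2 (-0.21), and was -0.0040 with both replicate 2 libraries omitted. That of Zeb1 to Zeb2 ranged from -0.15 to 0.071, reversing without control replicate 3 (0.071) and stimulated replicate 2 (0.018). The count of members called lower, 2, became 4 with the replicate block, 5 with equal totals added, 1 with the block and without both replicate 2 libraries, and 0 to 2 without single libraries. Without both replicate 2 libraries it was again 2, but Zeb2 and Twist1 in place of Snai2 and Zeb2. Over all genes, calls higher and lower were 1135 and 2265 with equal totals and 3232 and 2605 with the replicate block. With the block and equal totals they were 2042 and 4916. With the block and without both replicate 2 libraries they were 1214 and 582. Without these libraries and with no block they were 1505 and 893. Without single libraries they were 659 to 1583 higher and 258 to 801 lower, both lowest without stimulated replicate 3. On the deposited scale with all 6 libraries, the block changed no member's call other than those of Zeb1 and Twist2. Of 266 list counts under the alternatives, 67 moved by over 1.5 times, and 19 of 40 called list genes kept their call in each fit without a single library. For calls lost with 1 library fewer, fewer samples enter the fit, and the other causes were not tested.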
